A study of Mus musculus with 4 samples.

Results

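Interleukin-33 acts on group 2 innate lymphoid cells (ILC2s) through a receptor chain of which 10 genes are described here: Il1rl1, Il1rap, Sigirr, Myd88, Irak4, Irak1, Irak2, Irak3, Traf6 and Map3k7. They were chosen by gene symbol, as the receptor of the cytokine given to all mice and its proximal signalling parts, and each was found once among the 22558 genes counted. RNA was sequenced from sorted activated lung ILC2s in 4 libraries, 2 from wildtype C57BL/6 mice (WT) and 2 from mice labelled ICAM-1 KO (KO-labelled below), each library a pool of 4 mice. All mice were 6 weeks old and had received 3 intranasal doses of 0.5 µg rmIL-33, and lungs were taken on day 4, so that no library came from mice without IL-33. The study's methods name the knockout mice as B6.129S4-Icam1tm1Jcgr/J, a germline knockout, so that the allele is carried by the ILC2s and by all cells around them. The cells were gated as lineage-negative, CD45+, ST2+ and CD127+, and ST2 is the protein made from Il1rl1, so the presence of Il1rl1 RNA in every library follows from the gate.

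In this chain, IL-33 binds ST2, which then pairs with the accessory protein encoded by Il1rap. The joined intracellular TIR domains recruit the adaptor MyD88, the kinase IRAK4 phosphorylates IRAK1 and IRAK2, and the ubiquitin ligase TRAF6 and the kinase TAK1, encoded by Map3k7, pass the signal to NF-κB and the MAP kinases. SIGIRR, a receptor of the same family, and IRAK-M, encoded by Irak3, are known to limit signalling. In lung ILC2s this pathway drives release of IL-5 and IL-13.

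The libraries held 24796148 to 28782471 counts on genes. Values given as normalized counts are the authors' upper quartile normalized counts, differences are log2 fold changes of the KO-labelled libraries over WT in the quasi-likelihood test of edgeR, and a gene was called at a Benjamini-Hochberg adjusted p under 0.05 over the 11711 genes tested. Icam1, the targeted gene, was counted 2579 and 2630 times in WT but 2812 and 3453 times in the KO-labelled libraries (log2 fold change 0.33, adjusted p = 0.0745). The RNA of the targeted gene was thus not lower where the label says knockout, and the genotype is taken from the labels throughout. The paper states that ICAM-1 protein is missing in its knockout mice, and measured it by flow cytometry on lung ILC2s. Counts of RNA per gene do not measure protein. Among the ILC2 markers, the cytokine genes Il5 and Il13 fell in the KO-labelled libraries, by 0.76 and 1.45 on the log2 scale (adjusted p = 0.00274 and 0.00247). All 11 ILC2 markers were counted in every library, with Gata3, the lineage-defining transcription factor, at 425 to 537 normalized counts, although their sum was 6372 and 6825 in WT and 5434 and 5754 in the KO-labelled libraries (2 called higher, 4 lower). Markers of other cells also differed between the groups. Their summed normalized counts were 236 and 256 in WT against 505 and 762 for macrophages and monocytes (6 of 8 markers called higher), 131 in both WT libraries against 318 and 343 for endothelium (7 of 7), and 600.3 and 781 against 1048 and 1245 for regulatory and other T cells (5 of 8). For the T cell list Ctla4 was the most abundant marker, for macrophages Lyz2 and for endothelium Pecam1, and no marker of these lists was at 0 in any library. Of the other lists, 4 of 5 B cell, 3 of 5 neutrophil and 2 of 4 epithelial markers tested were called higher, and 2 of 4 eosinophil markers higher and 2 lower. The eosinophil sum was 95.2 and 68.2 in WT and 24.1 and 41.5 in the KO-labelled libraries. Its 2 lower markers were Prg2, the most abundant of the list, and Epx. Epx was counted 1027 and 739 times in WT and 0 and 0 times in the KO-labelled libraries. Over all genes tested 8.8% were called higher and 4.97% lower. The part of these cells in the differences below was not tested, and in bulk RNA a change in the number of cells of a type cannot be told apart from a change in RNA per cell.

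The promoters of Il1rl1 are shown first, because the gene has a distal and a proximal start and the counts are summed over both, and those of Irak2 and Myd88 follow, because Irak2 is the member that passed the test and Myd88 the shared adaptor. Each is 300 bases of RefSeq annotation on GRCm38.p6, 250 before and 50 after the start, written 5′ to 3′ on the gene's own strand. Capitals mark matches, searched on both strands, to 4 motifs. These were the letters TGANTCA for AP-1, the letters AGATAA for the GATA family, the letters GGAAGT for ETS factors, and the NF-κB consensus, and no match of one overlapped a match of another in the windows printed.

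Il1rl1 distal start, chr1:40429320-40429619, plus strand: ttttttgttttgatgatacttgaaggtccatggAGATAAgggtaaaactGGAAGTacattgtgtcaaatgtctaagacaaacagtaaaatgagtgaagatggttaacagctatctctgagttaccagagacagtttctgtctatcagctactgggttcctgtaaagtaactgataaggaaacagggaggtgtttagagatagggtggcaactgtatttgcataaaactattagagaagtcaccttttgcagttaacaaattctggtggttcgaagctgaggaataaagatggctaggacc
Il1rl1 proximal start, chr1:40439379-40439678, plus strand: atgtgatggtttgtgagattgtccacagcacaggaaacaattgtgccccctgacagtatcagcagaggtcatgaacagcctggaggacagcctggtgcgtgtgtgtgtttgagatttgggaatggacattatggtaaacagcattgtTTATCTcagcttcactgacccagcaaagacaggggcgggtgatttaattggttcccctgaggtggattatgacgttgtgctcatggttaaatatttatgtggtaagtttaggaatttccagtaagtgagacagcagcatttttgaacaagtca
Irak2, chr6:113638217-113638516, plus strand: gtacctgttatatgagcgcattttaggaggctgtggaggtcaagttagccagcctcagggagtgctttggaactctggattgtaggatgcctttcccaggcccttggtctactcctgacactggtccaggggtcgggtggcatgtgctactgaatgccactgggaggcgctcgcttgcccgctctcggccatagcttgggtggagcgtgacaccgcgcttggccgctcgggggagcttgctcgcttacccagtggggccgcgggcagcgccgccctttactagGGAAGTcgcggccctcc
Myd88, chr9:119339969-119340268, minus strand: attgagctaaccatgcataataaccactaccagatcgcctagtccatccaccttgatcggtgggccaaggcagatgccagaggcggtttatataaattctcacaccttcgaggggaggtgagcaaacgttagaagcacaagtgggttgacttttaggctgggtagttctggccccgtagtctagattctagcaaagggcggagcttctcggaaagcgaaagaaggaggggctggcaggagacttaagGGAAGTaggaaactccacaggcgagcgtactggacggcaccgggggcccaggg

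Both Il1rl1 windows held an AGATAA match, which 11.2% of the 32851 promoter windows of the table held. They were the only member windows with one, out of 12 windows that covered 9 of the 10 members. GGAAGT was found in 6 of the 12, the distal Il1rl1 window and those of Irak2, Myd88, Map3k7 and Irak1, whose pair of windows overlap, and in 23.8% of all windows. The NF-κB consensus was found in 3 of the 12, both windows of Irak1 and that of Map3k7, against 8.46% of all windows, and the AP-1 letters in none, against 7.81%. No match to the NF-κB consensus thus stands in the 4 windows printed above. These matches describe letters in the windows and nothing more.

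Per length of exon, the chain was dominated by its receptor gene, whose 5 annotated transcripts are counted together and were not told apart. Il1rl1, on chromosome 1 of mm10 from 40429570 to 40465415, was at 101 and 116 RPKM (counts per kilobase of exon, scaled to the library's total count) in the WT libraries and at 131 and 126 in the KO-labelled libraries, which placed it at rank 512 of the 11651 tested genes with an exon length. Il1rap, on chromosome 16 from 26581704 to 26730117, was the lowest member, at 1.01 and 1.36 RPKM in WT and 2.21 and 1.54 in the KO-labelled libraries, and ranked 10183. Il1rl1 was therefore counted 85.3 to 100.2 times as often per length as Il1rap in WT. In the KO-labelled libraries it was counted 59.0 to 82.0 times as often. Il1rap has many alternative exons, and when the longest transcript was taken as the length, the ratio was 44.1 to 51.8 in WT and 30.5 to 42.4 in the other libraries. On either length, both WT libraries lay above both KO-labelled libraries, by a small margin next to the gap within the latter.

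**Figure D1:**
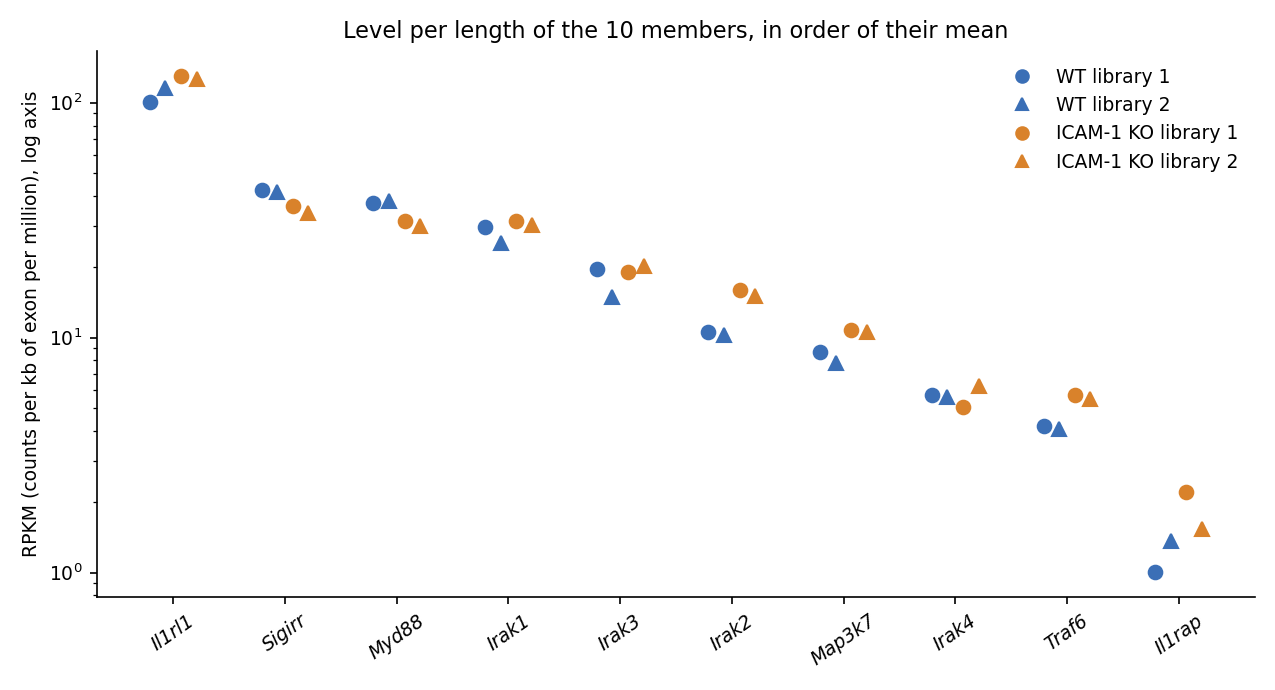
Level of each member in each library, in RPKM on a log axis, with genes ordered by their mean over the 4 libraries (circles, replicate 1; triangles, replicate 2; blue, WT; orange, KO-labelled libraries). Il1rl1 stands alone at 101 to 131 RPKM, and Il1rap alone at 1.01 to 2.21.

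Between these ends the order by mean RPKM was Sigirr (38.6), Myd88 (34.2), Irak1 (29.2), Irak3 (18.4), Irak2 (13.0), Map3k7 (9.44), Irak4 (5.66) and Traf6 (4.86). Ranges over the 4 libraries did not overlap between Il1rl1 and Sigirr, between Irak1 and Irak3, between Map3k7 and Irak4, or between Traf6 and Il1rap. The other neighbours in this order overlapped, which were Sigirr with Myd88, Myd88 with Irak1, Irak3 with Irak2, Irak2 with Map3k7, and Irak4 with Traf6. With the longest transcript as length only Myd88 and Irak1 traded places. Sigirr, the inhibitory receptor, was thus counted 16.4 to 42.1 times as often per length as Il1rap, the accessory chain, or 9.96 to 25.6 times with the longest transcript as length.

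Of the 10 members, 1 was called between the genotypes, Irak2, which was higher in the KO-labelled libraries. Among all genes tested 13.8% were called, 8.8% higher and 4.97% lower, so a count of 1 in 10 was close to the background. Before adjustment 6 of the 10 members had a p under 0.05, against 30.2% of all genes. The groups did not overlap for 7 of the 10, with 5 higher and 2 lower in the KO-labelled libraries, against 59.5% of all genes (28.3% higher and 31.3% lower). The median log2 fold change of the members was 0.18, beside 0.01 for all genes tested. No member reached a 2-fold change in this test, whereas 5.47% of all genes were called with at least 2-fold (4.94% higher and 0.538% lower).

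**Figure D2:**
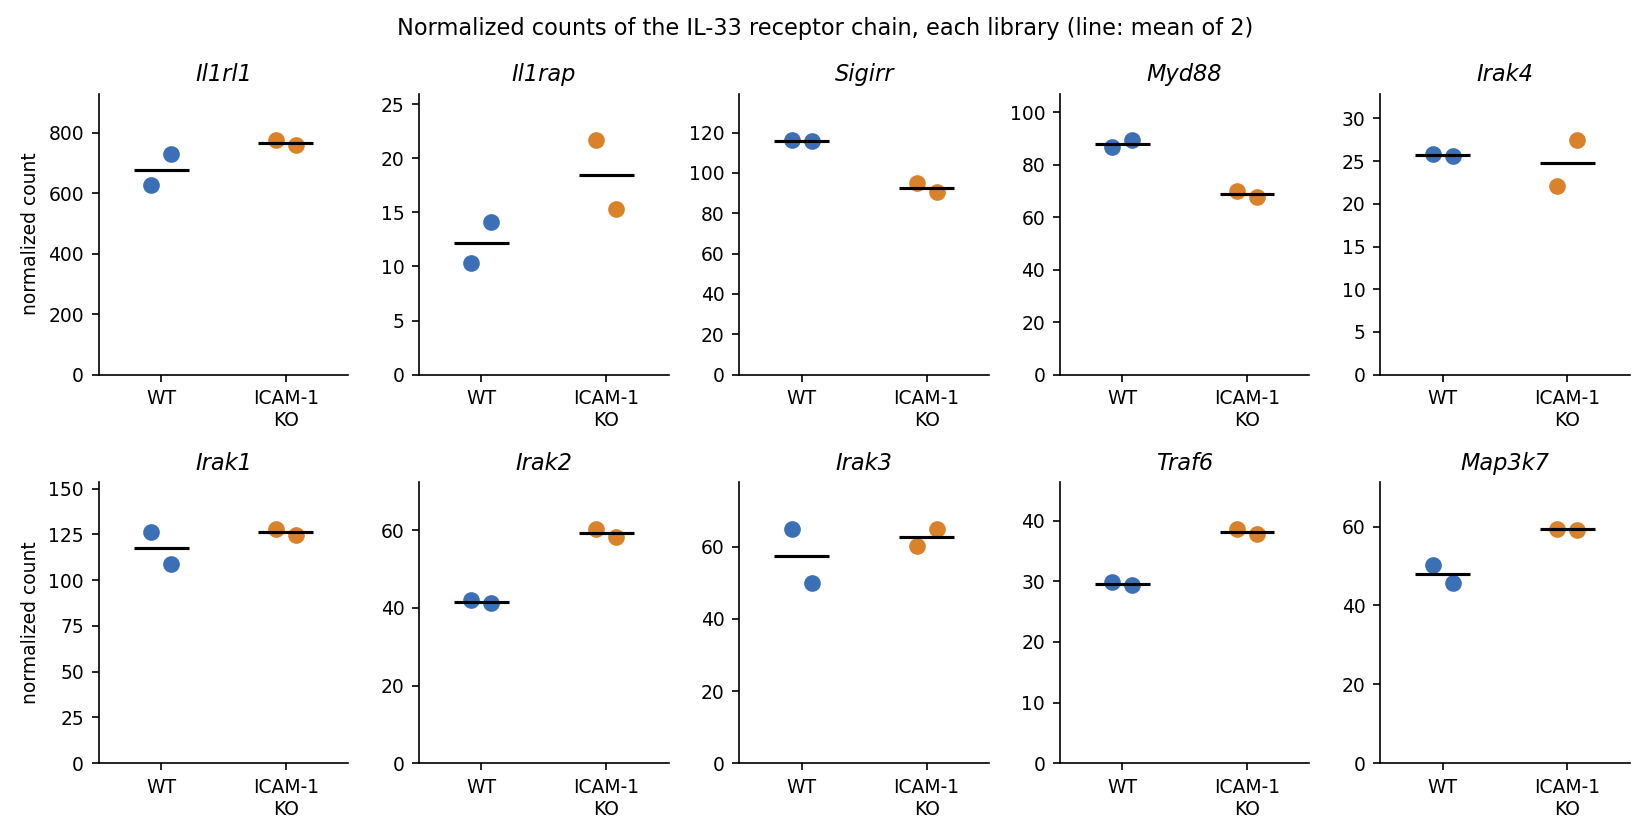
Normalized count of each member in each library (points) with the mean of 2 libraries (line), each axis starting at 0 (blue, WT; orange, KO-labelled libraries). Groups lie apart for Irak2, Traf6, Map3k7, Myd88 and Sigirr with little spread within a group, lie apart with wider spread for Il1rl1 and Il1rap, and overlap for Irak1, Irak3 and Irak4.

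At the receptor level, Il1rl1 was at 626 and 728 normalized counts in WT and at 774 and 760 in the KO-labelled libraries. The higher WT library lay just under the lower of the other group, and the spread between the WT libraries was larger than that gap. The log2 fold change was 0.21 (standard error 0.0931, 95% interval -0.004 to 0.42, adjusted p = 0.173), and the interval just includes 0. It was 0.10 without WT replicate 1 and 0.32 without WT replicate 2. Mast cells and regulatory T cells also carry ST2, and the lineage gate, which held CD3ε, CD4, TCRβ and FcεRIα, should remove both. Foxp3, the defining factor of regulatory T cells, was nevertheless counted in every library, at 42.4 and 53.9 normalized counts in WT and 157 and 181 in the KO-labelled libraries, and it rose (log2 fold change 1.84, adjusted p = 0.000224). Of the 8 markers of the T cell list 5 were called higher, against 8.8% of all genes. Cd3e and Ctla4 overlapped between the groups. Cd3g was lower, at 114 and 127 in WT and 81.1 and 107 in the KO-labelled libraries (log2 fold change -0.33, adjusted p = 0.158). The summed markers of mast cells and basophils, of which Cpa3 was the most abundant, were at 824 and 727 in WT and 852 and 999 in the KO-labelled libraries, with 7 of 7 counted in every library and 1 called, Hdc. The part of either cell type in the Il1rl1 level was not tested. Among the 1964 other genes with at least 100 normalized counts on average, the ones whose log2 normalized counts, centred on their mean, lay nearest to those of Il1rl1 over the 4 libraries were Hjurp, Prrc2c and Far1, at a root mean square distance of 0.00826, 0.00983 and 0.0251. These are the smallest of 1964 distances over only 4 libraries, and whether the genes vary together was not tested.

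Il1rap was counted 312 and 444 times in WT and 623 and 479 times in the KO-labelled libraries, or 10.3 and 14.1 against 21.7 and 15.3 normalized counts. The libraries of a group differed more than the nearest libraries across groups, at ratios of 1.36 within WT and 1.42 within the other group against 1.09 across the gap. Its log2 fold change of 0.62 was the largest in size among the members and also had the largest standard error among them (0.256, 95% interval 0.04 to 1.2, adjusted p = 0.143). Without WT replicate 2 it was 0.86 and without the ICAM-1 KO replicate 1 it was 0.36. Gm20319, on the other strand, shares 552 exon bases with Il1rap, and if reads were counted without strand the reads of such pairs cannot be told apart.

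Sigirr, on chromosome 7 from 141091175 to 141100572, gave the tightest WT values of the chain, 116.1 and 115.7 normalized counts, against 94.8 and 90.3 in the KO-labelled libraries. Both of the latter were lower, and the gap between the groups, a ratio of 1.22, was wider than the ratio of 1.05 within the lower group. The log2 fold change was -0.30 (standard error 0.0955, 95% interval -0.51 to -0.08), which did not pass the threshold with edgeR (unadjusted p = 0.0124, adjusted p = 0.0703) and passed it with DESeq2 (adjusted p = 0.0467). Over all 12 alternatives the adjusted p for Sigirr ranged from 0.0467 to 0.257.

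Myd88, the adaptor shared by ST2, the IL-1 and IL-18 receptors and most Toll-like receptors, lies on chromosome 9 from 119335934 to 119341411, 98.3 Mb from Icam1 on the same chromosome. It was at 86.8 and 89.3 normalized counts in WT and at 69.8 and 67.5 in the KO-labelled libraries. As for Sigirr, both KO-labelled libraries were lower, and the ratio across the gap, 1.24, exceeded the ratios within the groups, 1.03 in each. The log2 fold change was -0.33 (standard error 0.103, 95% interval -0.57 to -0.10) with an unadjusted p of 0.0104, and edgeR put the adjusted p at 0.0634. DESeq2 gave an adjusted p of 0.0422 and limma one of 0.0488, and over all 12 alternatives it ranged from 0.0422 to 0.215. Acaa1a, on the other strand, shares 290 exon bases with Myd88.

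Of the 4 IRAK genes 1 was called, and differences between the IRAKs were not tested. Irak2, on chromosome 6 from 113638467 to 113695026, encodes the IRAK known for sustaining the signal after its first wave. It was counted 1270 and 1300 times in the WT libraries and 1739 and 1830 times in the KO-labelled libraries, which gave 42.0 and 41.2 normalized counts against 60.4 and 58.3. Within each group its libraries lay close, at ratios of 1.02 and 1.04, while the nearest libraries of different groups were apart by a ratio of 1.39. Irak2 rose 1.45-fold, a log2 fold change of 0.54 (standard error 0.119, 95% interval 0.27 to 0.81, adjusted p = 0.0198). The adjusted p ranged from 0.00363 to 0.0826 over 12 alternatives, and the call was lost when genes of low count were kept (0.0826), without WT replicate 1 (0.0684), without WT replicate 2 (0.0771) and without ICAM-1 KO replicate 1 (0.0612), although the log2 fold change stayed between 0.53 and 0.56 with any library left out. Gm43963 on the other strand shares 196 of the 4412 exon bases of Irak2.

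Irak1, the most abundant IRAK, was at 126 and 109 normalized counts in WT and at 128 and 125 in the KO-labelled libraries, with overlapping groups (log2 fold change 0.13, 95% interval -0.11 to 0.37, adjusted p = 0.438), and the log2 fold change was 0.03 without WT replicate 2 and 0.24 without WT replicate 1. Irak4, the kinase at the head of the cascade, was at 25.8 and 25.6 in WT and 22.0 and 27.4 in the KO-labelled libraries, which lay on both sides of the WT values (log2 fold change -0.03, 95% interval -0.43 to 0.38, adjusted p = 0.938). Irak3, which encodes the inhibitory IRAK-M, was at 64.8 and 50.1 in WT and 60.3 and 65.0 in the other libraries, again with overlap (log2 fold change 0.15, 95% interval -0.17 to 0.48, adjusted p = 0.518). For these kinases the intervals still hold changes of either sign. Exons of Tmbim4 and Gm47009 overlap 220 bases of Irak3, and those of Twf1 395 bases of Irak4, all on the other strand. Irak3 turned to -0.02 without WT replicate 2 and Irak4 to 0.13 without ICAM-1 KO replicate 1.

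Set within each library, the make-up of the IRAK family by RPKM differed mainly in Irak2. This gene held 16.1% and 18.2% of the summed IRAK level in WT and 22.2% and 21.1% in the KO-labelled libraries, as the call on Irak2 already implies. Irak1 held 45.3% and 45.2% in WT and 44.0% and 42.1% in the others. Irak3 stayed between 26.6% and 29.9% with overlapping groups. Irak4 held 8.71% and 9.97% in WT and 7.12% and 8.70% in the KO-labelled libraries. These Irak4 groups lay apart by far less than the spread within either. These shares carry no test of their own.

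Downstream of the IRAKs, Traf6 and Map3k7 were both higher in each KO-labelled library. Traf6, on chromosome 2 from 101678429 to 101701669, was at 29.8 and 29.3 normalized counts in WT and at 38.6 and 37.8 in the KO-labelled libraries, with ratios of 1.02 within each group and 1.27 across the gap. The log2 fold change was 0.40 (standard error 0.14, 95% interval 0.08 to 0.71, unadjusted p = 0.0196, adjusted p = 0.0926). Map3k7, on chromosome 4 from 31964097 to 32023467, was at 50.3 and 45.6 in WT and at 59.4 and 59.2 in the KO-labelled libraries (log2 fold change 0.33, 95% interval 0.06 to 0.61, unadjusted p = 0.0213, adjusted p = 0.0967). Neither passed the threshold, in the edgeR test or in any of the 12 alternatives, which gave adjusted p-values of 0.0918 to 0.277 for Traf6 and 0.0952 to 0.279 for Map3k7. Since Myd88 was lower and Traf6 higher, though neither was called, their ratio by RPKM differed between the groups. The ratio of Myd88 to Traf6 was 8.92 and 9.32 in the WT libraries and 5.53 and 5.48 in the KO-labelled libraries. That of Myd88 to Irak4 lay closer, at 6.55 and 6.79 in WT and 6.18 and 4.80 in the KO-labelled libraries. Both ratios are a description with no test.

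**Figure D3:**
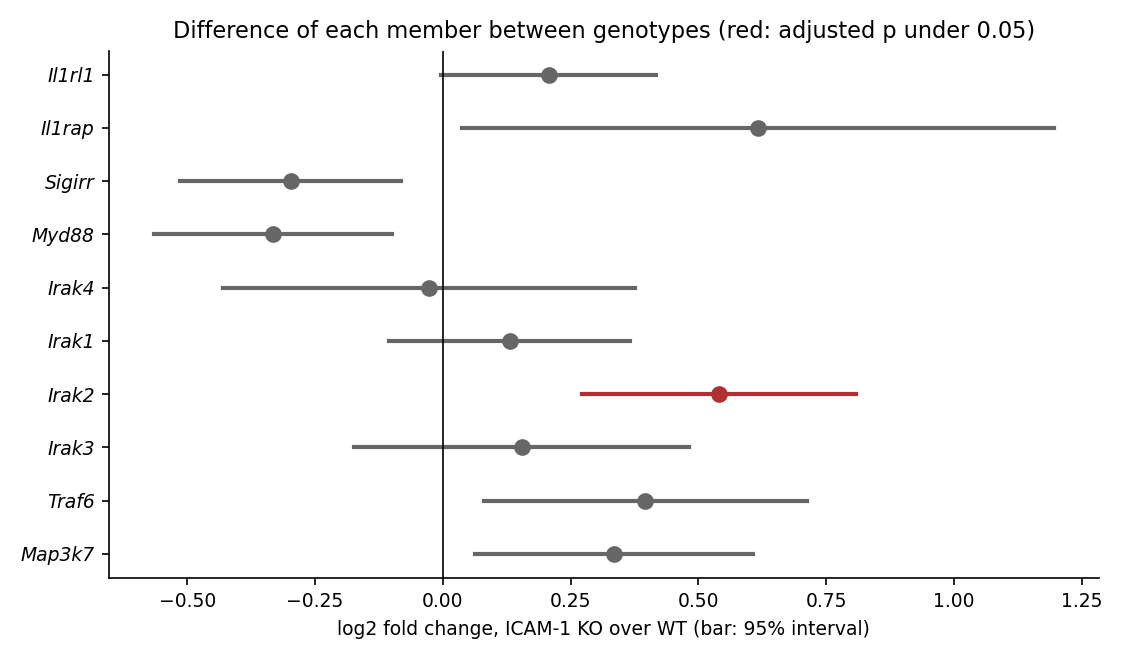
Log2 fold change of each member, KO-labelled libraries over WT (points), with its 95% interval from edgeR (bars), receptors at the top and Map3k7 at the bottom. The interval of Irak2 (red) runs from 0.27 to 0.81, those of Sigirr and Myd88 lie below 0 and those of Il1rap, Traf6 and Map3k7 above it without passing the adjusted threshold, and those of Il1rl1, Irak1, Irak3 and Irak4 include 0.

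Il1rl1 lies in a row of 6 receptor genes of the IL-1 family that spans 478 kb of chromosome 1, in the order Il1r2, Il1r1, Il1rl2, Il1rl1, Il18r1 and Il18rap. The levels along this row were far from even. Il1r2, which encodes a decoy receptor that binds IL-1 without signalling, was the only one above Il1rl1 in WT, at 187 and 174 RPKM, and it overlapped it at 116 and 131 in the KO-labelled libraries. Il18rap, the accessory chain of the IL-18 receptor, was at 11.9 to 17.1 RPKM and its partner Il18r1 at 2.55 to 4.49. Il1r1, the signalling IL-1 receptor, and Il1rl2, the IL-36 receptor, were at 0.158 to 1.62 RPKM.

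Of the 11 other genes of the IL-1 receptor family and TIR adaptors, 8 were tested and 1 was called, against 13.8% of all genes. Il1r2 fell from 321 and 302 normalized counts to 190.2 and 219, or by 0.58 on the log2 scale (standard error 0.0992, adjusted p = 0.00796), and leaving out WT replicate 1 moved the adjusted p to 0.0512. Il18rap was at 96.5 and 105 in WT and 69.3 and 83.8 in the KO-labelled libraries (log2 fold change -0.37, adjusted p = 0.0809), and Il18r1 at 11.1 and 17.4 against 18.6 and 17.4 (0.36, adjusted p = 0.362). The median log2 fold change of the 8 was 0.16.

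Toll-like receptors, which share Myd88 with ST2, were mostly rare, and 5 of the 11 listed passed the filter on low counts. Tlr2, which senses bacterial lipoproteins, was called, with 198 and 99 reads in WT and 316 and 510 in the KO-labelled libraries (log2 fold change 1.53, standard error 0.37, adjusted p = 0.0287). It rose beside the macrophage and monocyte markers given above, whose part was not tested, and its call was lost when genes of low count were kept (adjusted p = 0.105), at 0.0502 with the older quasi-likelihood form, at 0.128 without WT replicate 2 and at 0.075 without ICAM-1 KO replicate 2. Tlr1 had the highest mean over the 4 libraries, at 25.4 to 39.5 normalized counts (adjusted p = 0.485), and Tlr12 was at 10.5 to 17.0 (adjusted p = 0.491).

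Of the 22 kinases and ubiquitin factors listed downstream of Traf6, 20 were tested. In opposite directions 2 were called, against 13.8% of all genes called. Map3k8, the kinase also called TPL2 that feeds the ERK pathway, went from 120 and 127 normalized counts to 74.6 and 71.8 (log2 difference -0.72, standard error 0.0991, adjusted p = 0.00306) and passed the threshold in all 12 alternatives. Peli1, an E3 ligase that acts on IRAK1, rose from 74.8 and 84.7 to 102 and 108 (log2 difference 0.42, adjusted p = 0.0354). That call was lost without either WT replicate (0.146 and 0.059), without ICAM-1 KO replicate 2 (0.122), and under 2 other filters on low counts (0.0632 and 0.125). By normalized count, which is not divided by length, the highest of those not called were Ube2n, the E2 enzyme of TRAF6, at 236 and 247 against 194 and 205 (log2 fold change -0.25, adjusted p = 0.0902), and Rbck1, a subunit of the linear ubiquitin ligase, at 222 and 195 against 179.9 and 183 (-0.17, adjusted p = 0.265). The fold changes of 15 of the 20 were negative, against 48.8% of all genes, with a median of -0.10 on the log2 scale beside 0.01 for all genes.

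Of 8 genes that limit the chain, 7 were tested and 2 were called higher, against 8.8% of all genes. Tank, an adaptor that restrains TRAF signalling, rose from 56.6 and 56.8 to 92.6 and 107 normalized counts (log2 difference 0.85, standard error 0.118, adjusted p = 0.00324) and passed the threshold in all 12 alternatives. Cyld, a deubiquitinase that removes chains built by TRAF6, rose from 97.0 and 91.5 to 133 and 115 (log2 difference 0.43, adjusted p = 0.0319). That call was lost without either WT replicate (log2 difference 0.47 and 0.38) and without ICAM-1 KO replicate 1 (0.33). Under 2 other filters on low counts it was lost too (edgeR adjusted p = 0.0616 and 0.128). It was kept with at least 10 counts in every library (edgeR adjusted p = 0.0312). Tnfaip3, which encodes the ubiquitin-editing enzyme A20, was by far the most counted gene of the list, at 1289 and 1276 in WT and 1217 and 1210.2 in the KO-labelled libraries (log2 fold change -0.05, 95% interval -0.23 to 0.12, adjusted p = 0.702). Tnip1, a partner of A20, was at 89.4 and 83.3 against 84.9 and 105 (adjusted p = 0.423).

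**Figure D4:**
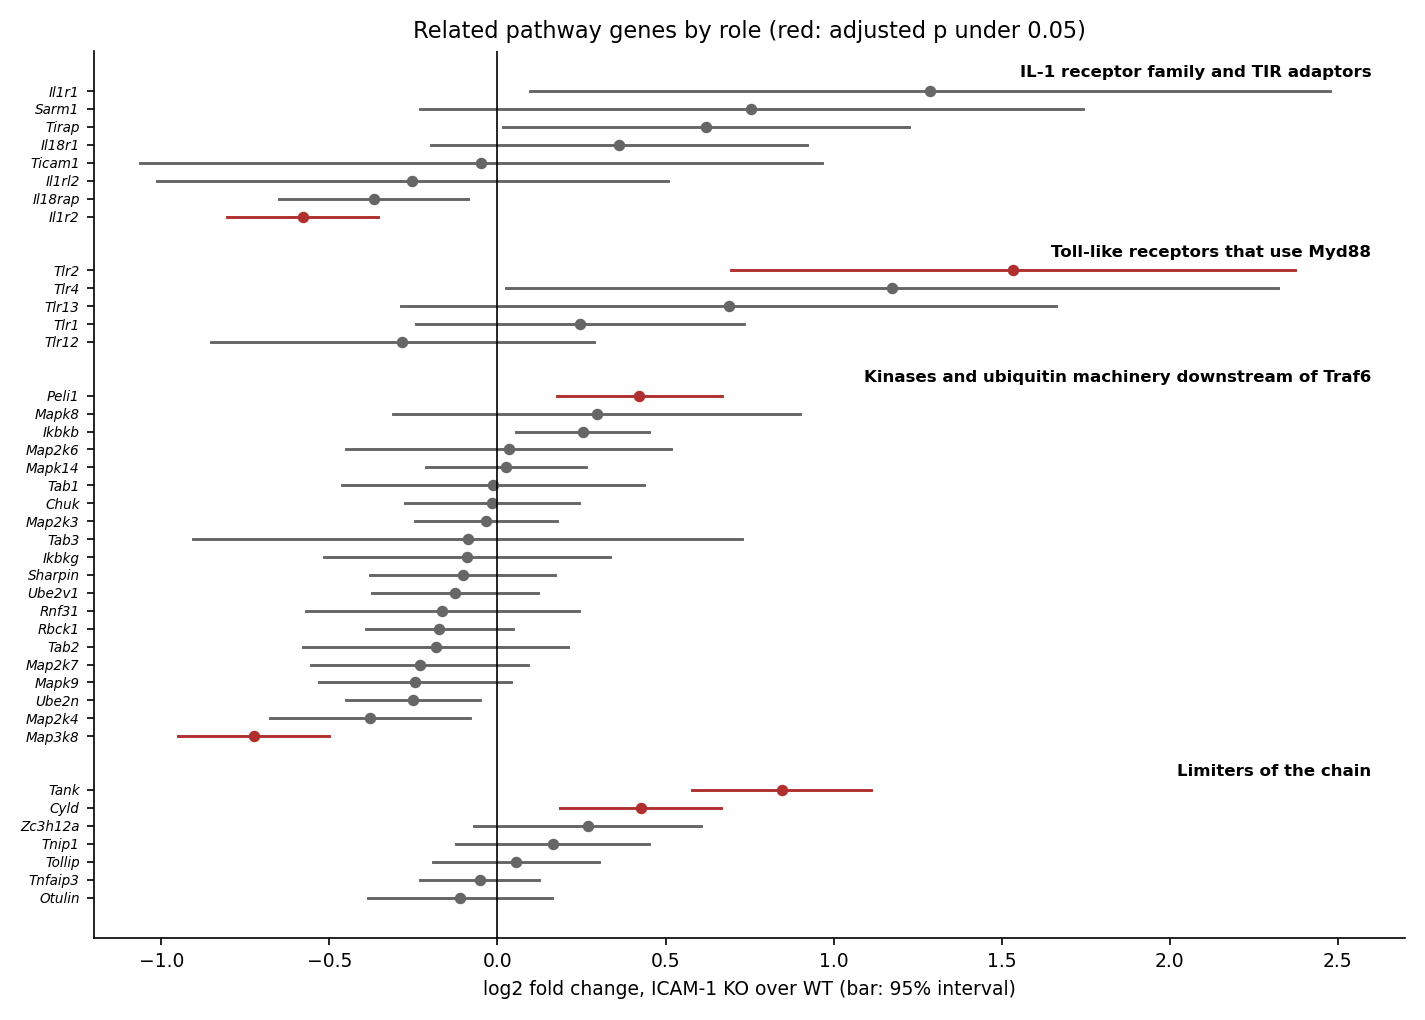
Log2 fold change of the 40 tested genes of the 4 related lists, KO-labelled libraries over WT (points), with 95% intervals from edgeR (bars) and genes called at an adjusted p under 0.05 in red. Called genes are Il1r2 and Map3k8 to the left of 0 and Tlr2, Peli1, Tank and Cyld to the right.

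Over these 4 lists together, 6 of the 40 genes tested were called, 4 higher and 2 lower, against 13.8% of all genes. Of the 6, only Tlr2 changed by at least 2-fold.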

How the data were processed

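RNA of sorted activated lung ILC2s was measured in 4 libraries, 2 WT and 2 labelled ICAM-1 KO, each made from 10 ng of RNA with a low-input SMARTer kit. The authors used STAR and the mm10 genome for alignment, and from GENCODE M20 gene models estimated the expected counts per gene in Partek, splitting reads that fit several genes, and these deposited counts are not normalized. Per the labels the tool versions are CASAVA 1.8.2 and STAR 3.5.3, whereas the paper's methods name another STAR version. The authors also deposited an upper quartile normalized signal, which equals the count plus 1 times 1 factor per library. Whether counting used strand is not given in the sources used here. The labels do not state how the pools relate to litters, so p-values measure the spread between these libraries.

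Expected counts were rounded and tested with edgeR 4.0.16 (glmQLFit, legacy FALSE) in R 4.3.3, with upper quartile factors, no covariate and the filter of the paper's methods, which keeps genes averaging 1 or more and summing to 10 or more normalized counts. The differential test the paper names, GSA, was not used here. Depth was 24796148 to 28782471 counts, and the least counted member, Il1rap, had 312 to 623 counts. Intervals are 95% and come from the standard error and the test's degrees of freedom. Exon lengths came from GENCODE M21, whose coordinates equal those of 21855 of the 22558 genes after the deposited end is moved by 1 base. The tests were tried on simulated data. DESeq2 1.42.0, limma 3.58.1 (log2 of the normalized count plus 1), TMM factors, other filters, the older quasi-likelihood form, a replicate block, 2-fold calls and leaving out each library were the alternatives. The members and lists were chosen with earlier results of these data known. Named genes are all members, Icam1, and from each list the called genes (up to 4 per direction) and the 2 most abundant others, with the 3 genes most like Il1rl1 and the most abundant marker of lists used. Gata3, Il5, Il13, Foxp3, Cd3e, Cd3g, Il1r1, Il1rl2, Hdc and Epx were named after their values were seen.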

Additional observations from a re-analysis of the deposited data

How the results depend on the processing

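Precision is limited by 2 libraries per group. Of 10 members, edgeR called 1, with 6 at an unadjusted p under 0.05. This count was 0 when genes of low count were kept, 0 with a 2-fold threshold, 2 with limma, 3 with DESeq2 (Irak2, Myd88 and Sigirr) and 0 to 1 with each library left out, where the lone library is assumed to vary like the other group. Over all genes 1612 were called, 535 when genes of low count were kept, 641 with the 2-fold threshold and 681 to 1305 with a library left out. Of the related pathway genes 6 were called, 3 when genes of low count were kept, 1 with the 2-fold threshold and 3 to 6 with a library left out. The cause was not tested. With the replicate block, 1 member, 6 pathway genes and 1715 genes in all were called. The numbers are shared only as numbers, and the deviations of libraries with the same number correlated at -0.0582. With a library left out, directions turned for Irak3 (-0.022 to 0.351, lowest without WT replicate 2), Irak4 (-0.208 to 0.128, highest without ICAM-1 KO replicate 1), Tlr1 (-0.093 to 0.526, lowest without ICAM-1 KO replicate 1) and Tnip1 (-0.008 to 0.318, lowest without ICAM-1 KO replicate 2), none of them called. All other members kept their direction in all 12 alternatives.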
